A study of Drosophila melanogaster with 5 samples.

Results

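Cell 1 of the pars intercerebralis (PI) was set against Cells 2 and 4 across all genes, because transcripts of 4 neuronal markers, *elav*, *brp*, *Syt1* and *para*, numbered at most 4 reads each in Cell 1. Genes were chosen from the read counts themselves. The first set holds the 18 genes with at least 100 RPM (reads scaled to 1000000 reads assigned to genes) in Cell 1 and at most 1 read in both Cell 2 and Cell 4. The second set holds the 10 genes with at least 100 RPM in both Cell 2 and Cell 4 and at most 1 read in Cell 1. All 17453 gene identifiers of the count tables were screened, so the sets are 0.103% and 0.0573% of them. Because these values chose the genes, they are given as a description, and with 1 cell against 2 no test was made.

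The PI, in the dorsal midline of the fly brain, holds neurosecretory cells that relay circadian and metabolic signals. From living brains 5 single PI cells were aspirated, and their RNA was amplified and sequenced. The flies were either kurs58-GAL4/Dilp2mCherry carrying UAS-mCD8::GFP/+ or C767-GAL4/+ carrying UAS-nlsGFP/Dilp2mCherry. GFP thus marked the cells to be taken and Dilp2mCherry, present in all animals, marked the insulin-producing cells to be avoided. The authors kept 4 cells and discarded the fifth because of how its reads mapped, and it is given here beside the others. Both GAL4 lines also drive GFP outside the PI, and the sources used here do not say which line labeled which cell. Each cell carries its own animal number in the labels, whereas the series description counts 4 animals for the 5 cells.

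Neurons are recognized by RNA-binding proteins such as *elav*, by the machinery that docks and fuses synaptic vesicles, and by voltage-gated channels that carry action potentials. *brp* encodes the Bruchpilot scaffold of the active zone, *Syt1* the calcium sensor of vesicle fusion, *para* the voltage-gated sodium channel, and *nrv3* a sodium pump subunit found in neurons. Hemocytes are the macrophage-like blood cells of the fly, and the fat body is its organ of lipid storage and humoral immunity.

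The depth of the 3 cells was alike. Reads assigned to genes numbered 3915694 in Cell 1, 3451331 in Cell 2 and 4441952 in Cell 4, so that 1 read was worth 0.255, 0.290 and 0.225 RPM, and 100 RPM required 392, 346 and 445 reads. Where no read was found, the 95% interval still reached up to 0.942, 1.07 and 0.830 RPM in Cells 1, 2 and 4. Folds against 0 reads were computed against a floor of 3 reads, which is 0.766, 0.869 and 0.675 RPM in the same cells. Such folds depend on the floor and are not limits of an interval. Cell 1 had the fewest genes at 1 RPM or more of the 3 cells, 4134 (23.7% of all genes), compared with 6022 (34.5%) for Cell 2 and 6118 (35.1%) for Cell 4. At 100 RPM the order was different, with 1394 genes in Cell 1, 1298 in Cell 2 and 1344 in Cell 4. Intervals given below are exact Poisson or exact binomial 95% intervals and cover counting error only, since amplified reads are not independent molecules.

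The 5 neuronal markers did not behave alike in Cell 1. *elav* (FBgn0260400) had 1 read in Cell 1, 423 in Cell 2 and 361 in Cell 4, or 0.255, 123 and 81.3 RPM. *Syt1* (FBgn0004242) had 3, 620 and 1010 reads in the same cells, and *para* (FBgn0264255) had 4, 627 and 626. The active zone gene *brp* (FBgn0259246) was low in every one of them, with 0, 70 and 37 reads in Cells 1, 2 and 4. By contrast, *nrv3* (FBgn0032946) had 1516 reads in Cell 1, which is 387 RPM, beside 1222 RPM in Cell 2 and 1712 RPM in Cell 4. The fifth marker was therefore lower in Cell 1 by 3.16 times against Cell 2 (95% interval 2.98 to 3.35) and by 4.42 times against Cell 4 (4.18 to 4.68), whereas for *Syt1* these ratios were 234 (79.9 to 1140) and 297 (101 to 1442). The size for *Syt1* depended on the counting. Its log2(RPM + 1) in Cell 1 minus the mean of Cells 2 and 4 was -6.85 in these counts and -5.26 in the MMQuant counts described below. Of the 5 markers, none met the rule for the second set. *elav* missed it by its 81.3 RPM in Cell 4, *brp* by its 20.3 and 8.33 RPM in Cells 2 and 4, *Syt1* and *para* by 3 and 4 reads in Cell 1, and *nrv3* by its level in Cell 1.

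**Figure D1:**
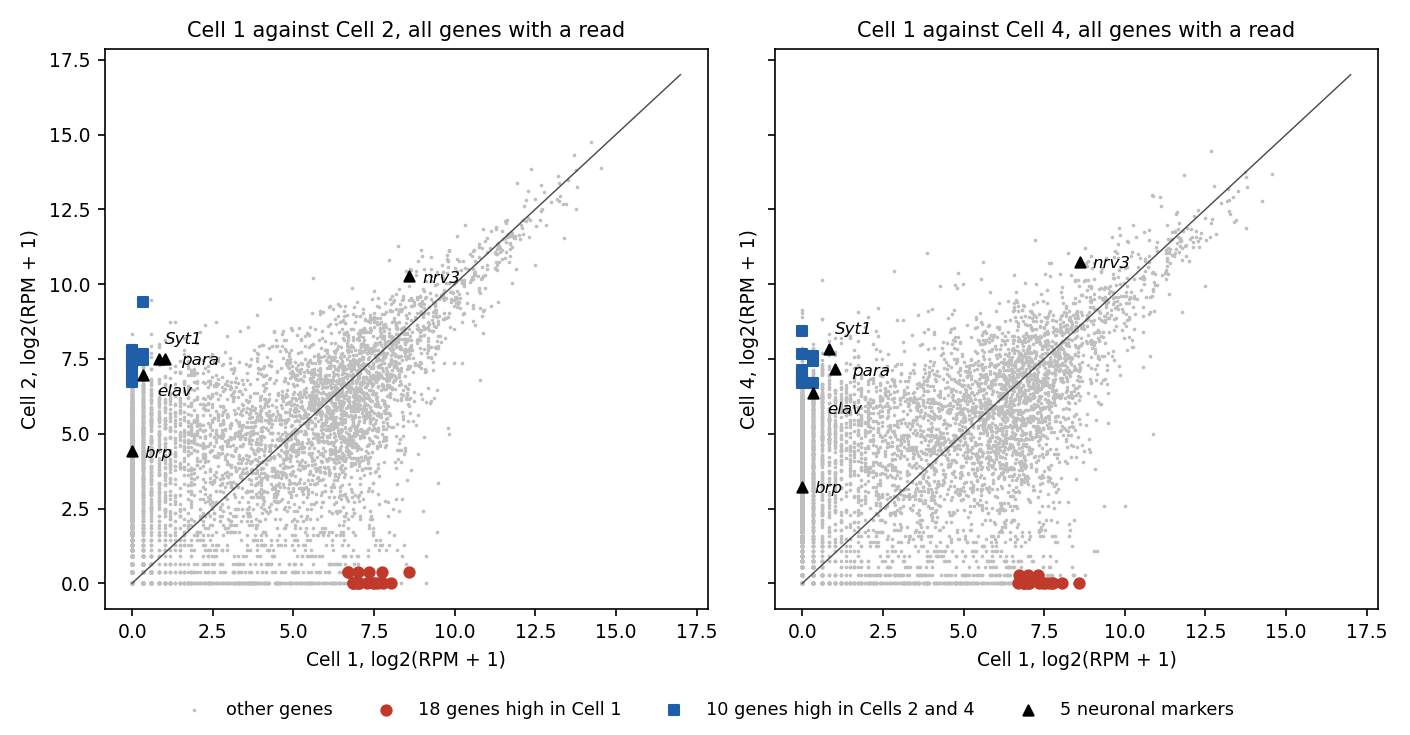
Expression as log2(RPM + 1) in Cell 1 (x axis) against Cell 2 (left) and Cell 4 (right) for 8616 genes with a read in at least 1 of the 3 cells; the line marks equal values. The 18 genes high in Cell 1 lie along the bottom, the 10 genes high in Cells 2 and 4 along the left edge beside *elav*, *Syt1* and *para*, while *nrv3* lies above the line, away from that edge.

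Most of what was abundant in Cell 1 was also found in the other cells. Of the 1394 genes at 100 RPM or more in Cell 1, 1288 (92.4%) reached 1 RPM in both Cells 2 and 4, 82 (5.88%) in 1 of them and 24 (1.72%) in neither. Of the 952 genes at 100 RPM or more in both Cells 2 and 4, 714 (75%) reached 100 RPM in Cell 1, 220 (23.1%) lay between 1 and 100 RPM, and 18 (1.89%) lay below 1 RPM. The members described below are thus drawn from the extremes of 2 small groups. The same rule with Cell 3 in the place of Cell 1 gave 31 genes high in Cell 3 (0.178% of all genes) and 68 high in Cells 2 and 4 (0.39%), and with the discarded cell 33 (0.189%) and 5 (0.0286%). In these cells *elav* had 88 reads (Cell 3) and 3316 reads (discarded cell).

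The 18 genes high in Cell 1 ranged from 102 to 382 RPM there, with a median of 143 RPM, and 11 of them had no read in either Cell 2 or Cell 4. They included enzymes of RNA modification and metabolism, a pair of transcriptional regulators, a kinase of the Toll pathway and a matrix peroxidase. Of the 18, 2 belonged to a gene list compiled for cell types and gene families, namely *Gnmt* (fat body) and *Pxn* (hemocytes). The share of all genes that fall in any list was not computed, so this count is not read as high or low. None belonged to a neuronal list. Of the 18, 17 are protein-coding genes and the remaining one, *CR43687*, is annotated as a pseudogene.

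The members with the highest values are known only by annotation numbers. *CG4950* (FBgn0036587, chromosome 3L, 16265797 to 16268156, minus strand) had 1494 reads in Cell 1 (382 RPM, interval 362 to 401), 1 read in Cell 2 and 0 reads in Cell 4. With the sum of the 2 stranded counts *CG4950* no longer met the rule. *CG1271* (FBgn0035392, chromosome 3L, 3052514 to 3054906, plus strand) had 1028 reads in Cell 1 (263 RPM, interval 247 to 279) and 0 reads in Cells 2 and 4. Against the floor of 3 reads it was 302-fold higher in Cell 1. They were followed by *meep* (FBgn0063667), with 859 reads or 219 RPM against 0 and 0. The pseudogene *CR43687* (FBgn0263770) had 774 reads in Cell 1, or 198 RPM, and 0 in both other cells. *CG4957* (FBgn0032205) had 686 reads, or 175 RPM, against 0 and 0.

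A further 3 members act on RNA. *Dus2* (FBgn0030554, chromosome X, 14237988 to 14240152, plus strand), which encodes a tRNA dihydrouridine synthase, had 831 reads in Cell 1 (212 RPM), 1 in Cell 2 and 0 in Cell 4. *Elp2* (FBgn0033540, chromosome 2R, 10645735 to 10648634, plus strand), a subunit of the Elongator complex that modifies tRNA, had 715 reads (183 RPM) against 0 and 0, a difference of 210-fold against the floor. *Suv3* (FBgn0037232, chromosome 3R, 4311555 to 4315398, plus strand), a mitochondrial RNA helicase, had 500 reads (128 RPM) against 1 and 1, which is a ratio of 441 to Cell 2 (78.7 to 17441) and of 567 to Cell 4 (101 to 22447). The width of these intervals shows how little a single read fixes the ratio.

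Another 3 encode metabolic and transport proteins. *Gnmt* (FBgn0038074), glycine N-methyltransferase, which uses S-adenosylmethionine and is abundant in the fat body, had 633 reads in Cell 1 (162 RPM), 1 in Cell 2 and 0 in Cell 4. *smp-30* (FBgn0038257), a relative of vertebrate SMP30 (regucalcin), had 612 reads (156 RPM), 0 and 1. *Zip89B* (FBgn0038412), a zinc transporter of the ZIP family, had 404 reads (103 RPM), 1 and 1, and so lay just above the threshold.

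Regulatory genes were represented by *pnr*, *z* and *pll*. *pnr* (FBgn0003117, chromosome 3R, 16026079 to 16041796, plus strand), a GATA transcription factor of dorsal epidermis and heart, had 510 reads in Cell 1 (130 RPM, interval 119 to 142) and 0 reads in Cells 2 and 4, 150-fold apart against the floor. *z* (FBgn0004050), the DNA-binding protein Zeste, had 506 reads (129 RPM) against 0 and 0. *pll* (FBgn0010441), the Pelle kinase that acts downstream of Toll in embryonic patterning and immunity, had 489 reads (125 RPM) against 0 and 0. *Pxn* (FBgn0011828, chromosome 3L, 2601455 to 2630064, minus strand), the peroxidasin that hemocytes secrete into the extracellular matrix, was the lowest of the set, with 400 reads in Cell 1 (102 RPM, interval 92.4 to 113), 1 in Cell 2 and 0 in Cell 4. The other 3 members, *CG32409*, *CheB42a* and *CG18178*, had 446 to 452 reads in Cell 1 (114 to 115 RPM) and 0 reads in both other cells. Over the 11 members with no read in either comparison cell, the difference against a floor of 3 reads ranged from 131-fold (*CG18178*) to 302-fold (*CG1271*) in these counts. For *CG32409* a fold of this size does not hold under other counting. With the sum of the 2 stranded counts its log2(RPM + 1) in Cell 1 minus the mean of Cells 2 and 4 was 3.06 in place of 6.86, and that of *Pxn* was 3.34 in place of 6.51.

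**Figure D2:**
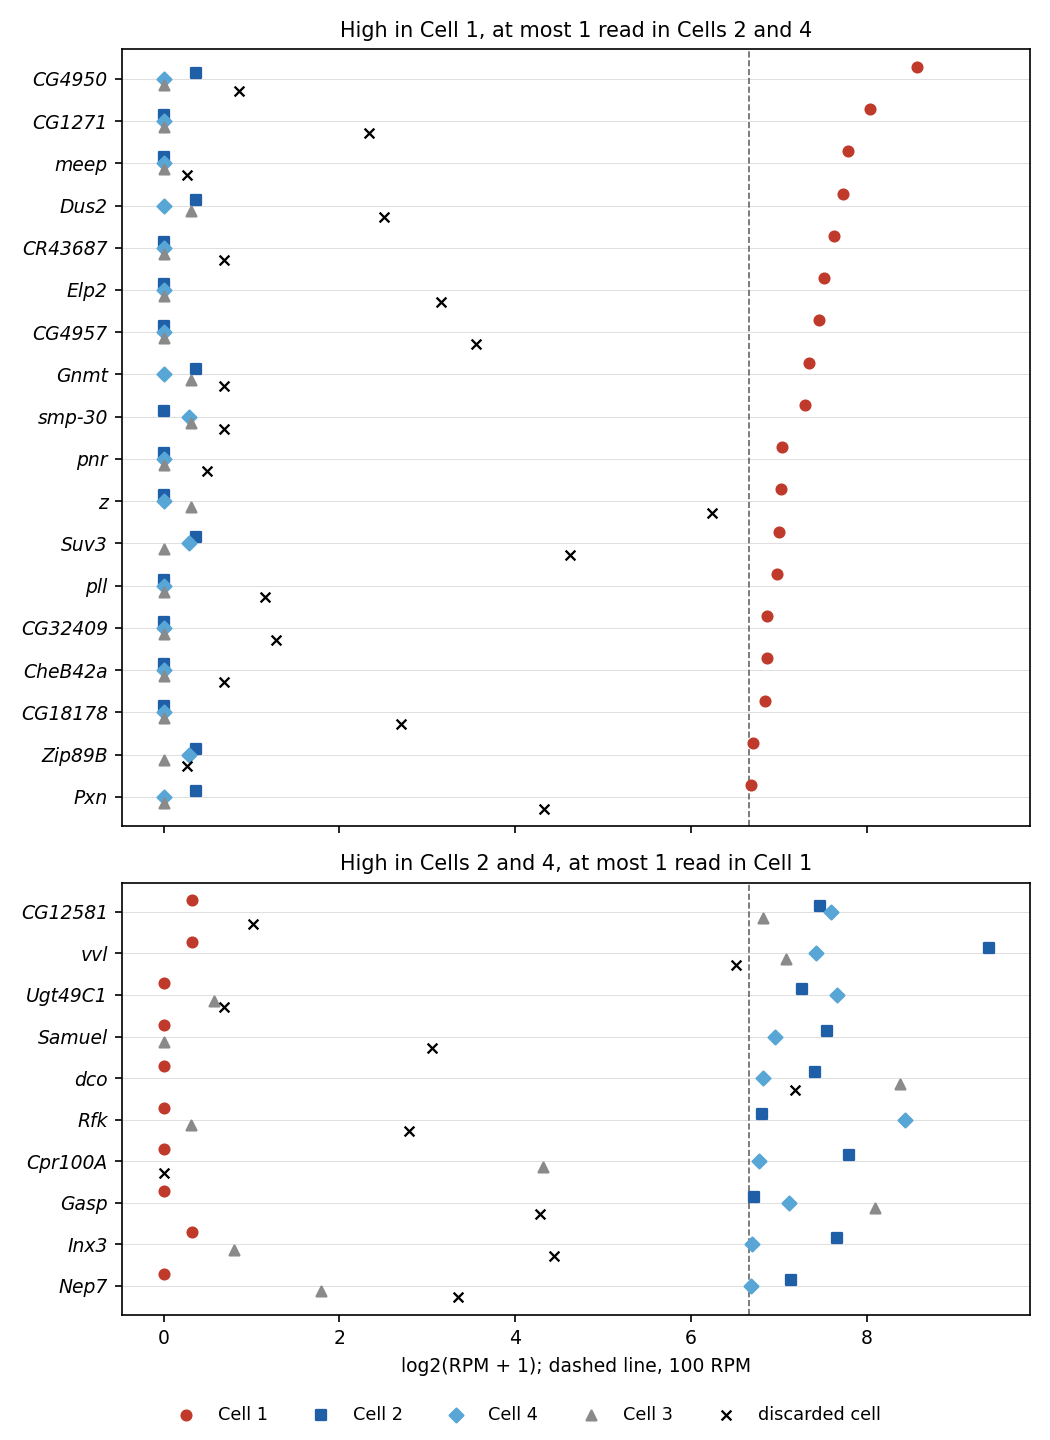
Expression as log2(RPM + 1) (x axis) of each member in each of the 5 cells, 1 point per cell, with the 18 genes high in Cell 1 above and the 10 genes high in Cells 2 and 4 below; the dashed line marks 100 RPM. Cell 3 lies at or below 0.245 RPM for all 18 genes of the upper panel and at 112 RPM or more for *CG12581*, *vvl*, *dco* and *Gasp* of the lower panel.

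Cell 3 and the discarded cell were not used by the rule. No member of the first set reached 1 RPM in Cell 3 (0 of 18), where 14 had 0 reads and *Dus2*, *Gnmt*, *smp-30* and *z* had 1 read each, or 0.245 RPM. Over all 1394 genes at 100 RPM or more in Cell 1, 69.2% reached 1 RPM in Cell 3, and over all 17453 genes 17.7% did. The 1394 genes are not a like background, since 92.4% of them reached 1 RPM in both Cells 2 and 4. The 18 were chosen for at most 1 read there, so a lower share in further cells does not set them apart. In the discarded cell, where 8543 of all 17453 genes had a read, every one of the 18 had at least 1 read. For *meep* and *Zip89B* it was a single read. Of the 18, 10 (55.6%) reached 1 RPM there, compared with 93.4% of the genes at 100 RPM or more in Cell 1 and 40.7% of all genes. The highest of them there was *z*, with 368 reads (74.9 RPM), followed by *Suv3* at 23.6 RPM, *Pxn* at 19.1 RPM, *CG4957* at 10.8 RPM and *Elp2* at 7.94 RPM. None reached 100 RPM. Cell 1 therefore held the highest value of the 5 cells for all 18 genes.

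The 10 genes high in Cells 2 and 4 were described in the same way. Their lower value of the pair ranged from 102 to 176 RPM, with a median of 112 RPM, and 7 of them had no read in Cell 1. The pair differed from each other by less than 2-fold for 7 of the 10 genes, and by at most 3.93-fold. The rule itself required 100 RPM in both cells, and the same share over all 952 genes at that level was not computed. The count is therefore not read as agreement of the pair. Of the 10, 5 belonged to a gene list, a count that likewise has no share over all genes beside it. These were *vvl* (neuronal identity transcription factors), *dco* (core clock genes), *Gasp* (trachea, epidermis and cuticle), *Cpr100A* (cuticle proteins) and *Ugt49C1* (glutathione and glucuronosyl transferases).

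Only *vvl* came from a list of neuronal genes. *vvl* (FBgn0086680, chromosome 3L, 6790158 to 6794941, plus strand), a POU-domain transcription factor of neurons and trachea, had 1 read in Cell 1, 2309 in Cell 2 (669 RPM) and 757 in Cell 4 (170 RPM). Its ratio to Cell 1 was 2620 for Cell 2 (470 to 103516) and 667 for Cell 4 (119 to 26392). *dco* (FBgn0002413, chromosome 3R, 31054085 to 31061210, minus strand), the casein kinase Doubletime that phosphorylates the clock protein Period, had 0 reads in Cell 1, 584 in Cell 2 (169 RPM) and 499 in Cell 4 (112 RPM), 147-fold apart against the floor. *CG12581* (FBgn0037213) had 1 read in Cell 1, 607 in Cell 2 (176 RPM) and 852 in Cell 4 (192 RPM).

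The cuticle and junction genes of the set were *Gasp*, *Cpr100A* and *Inx3*. *Gasp* (FBgn0026077), a chitin-binding protein of tracheal and other cuticle, had 0 reads in Cell 1, 361 in Cell 2 (105 RPM) and 613 in Cell 4 (138 RPM). *Cpr100A* (FBgn0039805), a cuticle protein, had 0, 768 and 482 reads, the latter being 223 and 109 RPM. *Inx3* (FBgn0265274), an innexin of gap junctions, had 1, 695 and 456 reads, or 0.255, 201 and 103 RPM. *Inx3* and *Nep7*, a neprilysin-like peptidase with 0 reads in Cell 1 and 140 and 102 RPM in Cells 2 and 4, lay nearest to the threshold.

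*Ugt49C1*, *Rfk* and *Samuel* made up the rest. *Ugt49C1* (FBgn0034605), a UDP-glycosyltransferase, had 0 reads in Cell 1, 527 in Cell 2 (153 RPM) and 893 in Cell 4 (201 RPM). *Rfk* (FBgn0014930), riboflavin kinase, had 0, 383 and 1537 reads, the latter being 111 and 346 RPM. *Samuel* (FBgn0032330), a protein with a SAM domain, had 0, 643 and 549 reads, or 186 and 124 RPM in Cells 2 and 4. Over the 7 members without a read in Cell 1, the difference against a floor of 3 reads ranged from 133-fold (*Nep7*) to 199-fold (*Ugt49C1*).

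In Cell 3, 6 of the 10 genes (60.0%) reached 1 RPM, compared with 87.5% of the 952 genes at 100 RPM or more in both Cells 2 and 4, and 4 of them reached 100 RPM, compared with 53.8%. These 4 were *dco* at 333 RPM, *Gasp* at 272 RPM, *vvl* at 135 RPM and *CG12581* at 112 RPM. The 952 genes are not a like background, since 75% of them reached 100 RPM in Cell 1, where the members had at most 1 read. *Samuel* had 0 reads in Cell 3, while *Ugt49C1*, *Rfk* and *Inx3* had 2, 1 and 3 reads. In the discarded cell 8 of the 10 (80.0%) reached 1 RPM against a background of 98.2%, and only *dco*, at 145 RPM, reached 100 RPM, whereas 66.3% of the background did. There *Cpr100A* had 0 reads, *Ugt49C1* had 3 and *vvl* stood at 90.4 RPM. The 2 cells the rule did not use thus held *dco* and *vvl* at 90 RPM or more. Cell 1, which the rule itself placed below Cells 2 and 4, was the lowest of the 5 cells for *dco*, *vvl*, *Gasp* and *Nep7*. For *Ugt49C1*, *Rfk* and *Inx3* Cell 1 was lowest by few reads, and its interval overlapped that of Cell 3. The same held for *CG12581* against the discarded cell, which had 5 reads. For *Samuel* Cell 1 shared its 0 with Cell 3 and for *Cpr100A* with the discarded cell.

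The genes on either side of the limits were close in value. In the first set *Pxn* (102 RPM), *Zip89B* (103 RPM) and *CG18178* (114 RPM) lay just inside, and *lin-52* (99.3 RPM), *CR18166* (93.5 RPM) and *Cap-G* (85.0 RPM) just outside, each with at most 1 read in Cells 2 and 4. In the second set *Nep7*, *Inx3* and *Gasp* lay just inside at 102, 103 and 105 RPM in the lower cell, and *CG40160*, *CG14441* and *CG5191* just outside at 97.9, 95.6 and 93.9 RPM. A further 10 genes at 100 RPM or more in Cell 1 had 2 to 5 reads in the higher of Cells 2 and 4. Among them were *CG42807* (558 RPM in Cell 1, 3 and 5 reads), *PolE1* (326 RPM, 0 and 2 reads), which encodes the catalytic subunit of DNA polymerase epsilon, and *PGRP-SB1* (232 RPM, 4 and 0 reads), a peptidoglycan recognition protein, all 3 picked out after their values were seen. Conversely, 13 genes at 100 RPM or more in Cells 2 and 4 had 2 to 5 reads in Cell 1, *Syt1* and *para* among them. Because the limits fall where genes are dense, the sets are samples of a continuous range. A threshold of 50 RPM enlarged them to 40 and 83 genes, and one of 200 RPM reduced them to 4 and 0. With Cell 2 left out, 60 genes met the rule for Cell 1 and 71 the reverse rule, and without Cell 4 the counts were 45 and 51.

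Some properties that the rule did not use were also recorded. Of the 18 genes, 6 lie on chromosome 3L, 6 on 3R, 3 on 2R, 2 on X and 1 on 2L. Of the genes at 100 RPM or more in Cell 1, these arms held 17.3%, 24.1%, 19.4%, 17.9% and 20% in the same order. Of the 10 genes, 7 lie on 3R, an arm named after the counts were seen, and 1 each on 2L, 2R and 3L. For 3R the shares were 23.7% of all genes and 23.3% of the genes at 100 RPM or more in both Cells 2 and 4. The closest pair of members, *CG12581* and *Suv3*, are 124804 bases apart and belong to different sets. The median length from first to last base was 2263 bases for the 18 genes and 5338 bases for the 10 genes, compared with 3239 bases for genes at 100 RPM or more in Cell 1, 4341 bases for those at 100 RPM or more in Cells 2 and 4, and 1709 bases for all genes.

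Overlapping genes can take or hide reads where strand is not used, as here. Of the 18 genes, 10 overlap the span of another gene on the opposite strand, and of the 10 genes 2 do. Overlaps were sought for the members only, so without the share over all genes neither count is read as a property of its set. *smp-30* lies within the span of *jvl*, *pll* within that of *TfIIA-L*, which had 599 reads in Cell 1 beside the 489 of *pll*, and *CheB42a* within those of *mim* and *CheB42c*. Without strand, reads that lie in exons of both genes cannot be told apart. In the MMQuant tables, where a read over several genes is given to the group, 15 of the 18 genes and all 10 of the others had no shared read in Cells 1, 2 and 4, and the most was 8 reads (*CG32409* in Cell 2). Counts that MMQuant gave to a single gene were within 10% of those of STAR in 30 of 38 pairs of a member and a cell with at least 100 reads. The exceptions included *CG32409*, with 1366 reads by MMQuant and 452 by STAR in Cell 1, and *Pxn*, with 787 and 400. In Cells 2 and 4 MMQuant assigned 8 and 6 reads to *CG32409*, and 4 and 7 to *Pxn*, so that neither met the limit of 1 read.

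Beyond the sets, genes were compared at a lower contrast. Among 5914 genes with at least 10 RPM in 1 of the 3 cells, 513 (8.67%) were at least 4-fold higher in Cell 1 than in each of Cells 2 and 4, and 1524 (25.8%) at least 4-fold lower, with genes at 0 to 2 reads set to 3 reads. The median over the 5914 genes of the log2 ratio of Cell 1 to the geometric mean of Cells 2 and 4 was -1.50, so that lists are read beside this value and beside both shares. Without Cell 2 the counts were 877 and 2219, and without Cell 4 they were 804 and 1962. In Cell 3, which was not compared, 23.2% of the 513 genes and 41.2% of the 1524 genes reached 1 RPM, against 44.0% of all 5914. In the discarded cell these shares were 73.3%, 84.9% and 83.2%. The 513 and 1524 genes were chosen by their levels in Cells 2 and 4, so the 5914 genes are not a like background for either share. The genes named from here on that are neither members nor among the 5 markers were chosen after their values were seen.

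Pan-neuronal and synaptic release genes, kept as 1 list, were for the most part present in Cell 1. Of the 32 genes on the list, 26 reached 1 RPM in Cell 1, compared with 30 and 31 in Cells 2 and 4 and 24 in Cell 3. At 10 RPM the counts were 21, 27 and 31 in Cells 1, 2 and 4. Not all of the list belongs to the release machinery, *futsch* and *Rbp9* below being examples. Of the 31 compared, 10 (32.3%) were at least 4-fold lower in Cell 1, 1 was higher and 20 lay within these bounds, and the median log2 ratio was -1.85. *cpx*, the complexin that clamps vesicle fusion, had 2689 reads in Cell 1 (687 RPM) beside 799 and 1885 RPM in Cells 2 and 4. *futsch*, a microtubule-associated protein of axons, stood at 257, 287 and 344 RPM, and *Syx1A*, the plasma membrane syntaxin, at 75.8, 85.2 and 72.3 RPM. *Rbp9*, a relative of *elav*, stood at 220, 134 and 174 RPM. The 3 cells thus lay within 2-fold of each other for *futsch*, *Syx1A* and *Rbp9*, whereas *cpx* was higher in Cell 4. The 10 lower genes included *shi* (dynamin), with 14 reads in Cell 1 against 452 and 1133, and *unc-104*, a kinesin of synaptic vesicle precursors, with 31 reads against 508 and 391. *Syt4* and *Syt7* had 0 reads in Cell 1, with 224 and 193 reads of *Syt4* and 87 and 144 of *Syt7* in Cells 2 and 4. The gene that was higher, *Nsf2*, an ATPase that disassembles SNARE complexes, had 1066 reads in Cell 1 against 16 and 134. The label of a weakly neuronal cell is thus met by *elav*, *brp*, *Syt1* and *para*, on which it was based, while *nrv3*, *cpx*, *futsch*, *Syx1A* and *Rbp9* were recorded in Cell 1 at 75.8 RPM or more.

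**Figure D3:**
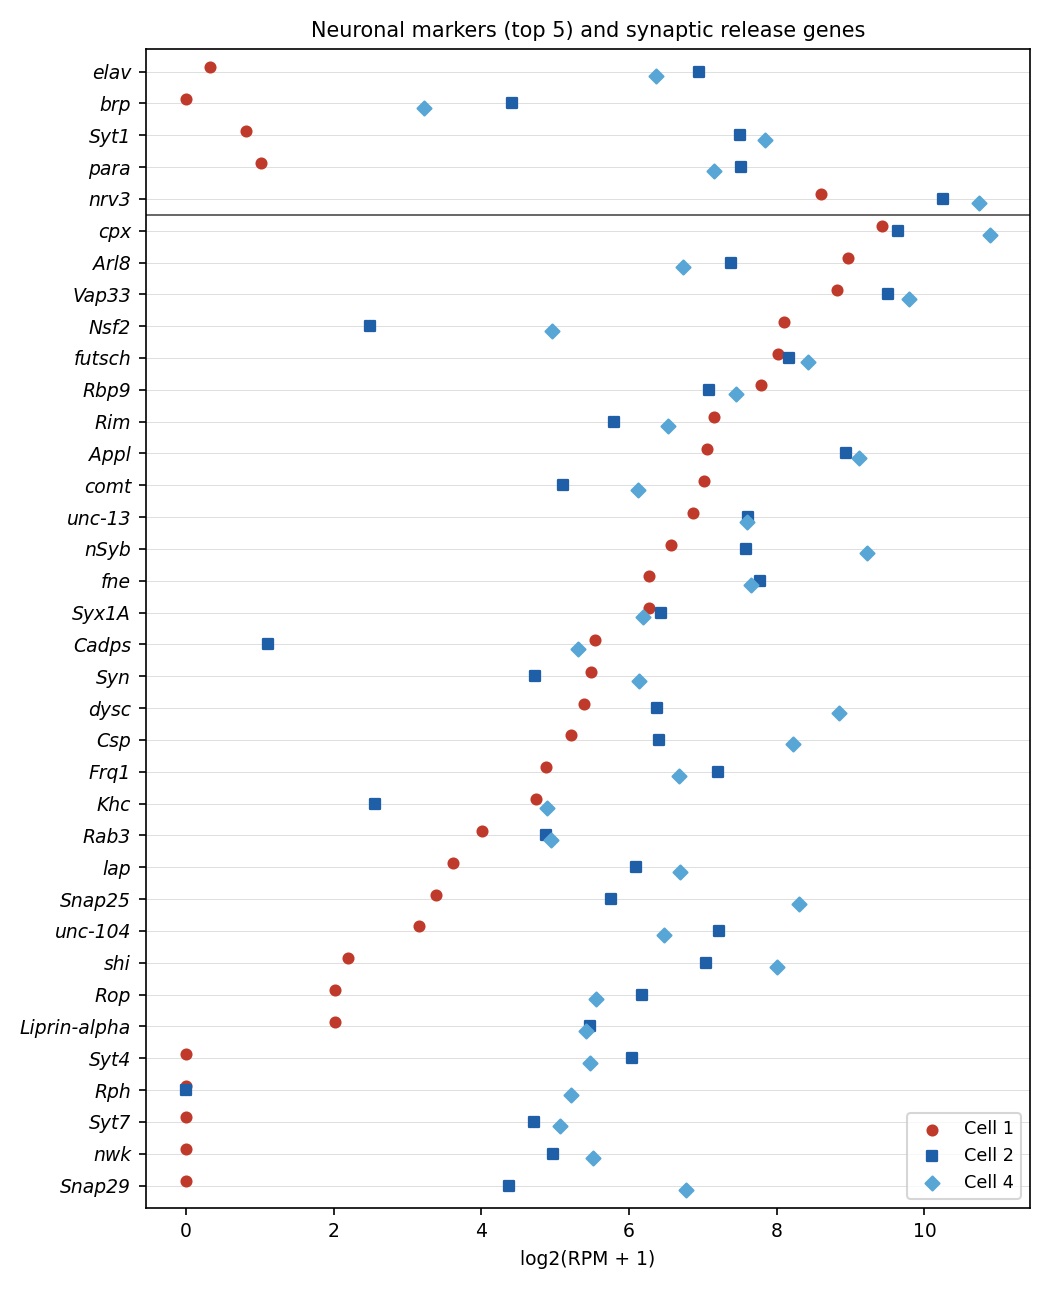
Expression as log2(RPM + 1) (x axis) of the 5 neuronal markers (above the line) and of 31 genes of the pan-neuronal and synaptic release list, ordered by their level in Cell 1, with 1 point for each of Cells 1, 2 and 4. From *cpx* to *Rab3*, *Nsf2* excepted, Cell 1 lies within the 4-fold bounds of Cells 2 and 4, and towards the bottom it is lower, with 0 reads for *Syt4*, *Rph*, *Syt7*, *nwk* and *Snap29*.

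Channel genes were more often low. Of 22 voltage-gated and leak channel genes compared, 11 (50%) were at least 4-fold lower in Cell 1 and none was higher, and the median log2 ratio was -4.23. *Sh*, the Shaker potassium channel, had 24, 558 and 6213 reads in Cells 1, 2 and 4, and *cac*, the presynaptic calcium channel, had 8, 110 and 827. *slo*, the calcium-activated potassium channel, was within the bounds at 42.1, 139 and 207 RPM, as was *Ih*, the hyperpolarization-activated channel, at 256, 720 and 861 RPM. Of 13 ligand-gated channel genes, 6 (46.2%) were lower and none was higher. *nAChRalpha6*, a nicotinic receptor subunit, stood at 225 RPM in Cell 1, above its 52.7 and 112 RPM in Cells 2 and 4, and so did *Rdl*, the GABA receptor, at 169 RPM against 54.8 and 106 RPM, whereas *nAChRbeta1* had 1 read against 44 and 157.

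Transcription factors of neuronal identity gave a larger share of lower genes than the pan-neuronal and release list and the channel lists. Of 28 compared, 17 (60.7%) were at least 4-fold lower in Cell 1, none was higher, and the median log2 ratio was -3.08. Apart from *vvl*, *dsx* and *fru*, the sex determination factors, each had 1 read in Cell 1, with 511 and 389 reads of *dsx* and 328 and 202 of *fru* in Cells 2 and 4. *pros* (Prospero) was lower but abundant, at 251, 1803 and 1281 RPM, and *toy*, a Pax6 homolog, was not lower, at 250, 111 and 140 RPM. Of 12 core clock genes, 7 (58.3%) were lower and none was higher. Besides *dco* these included *cwo*, a repressor of the clock loop, with 54 reads in Cell 1 against 1713 and 1005, *vri*, with 2 against 175 and 264, and *sgg* (Shaggy kinase), with 26 against 1052 and 1959. For *sgg* a further 1224 reads in Cell 1 were shared with overlapping genes by MMQuant. *Pdp1*, which activates *Clk*, stood at 1176, 1423 and 1954 RPM, and *tim* at 91.2, 12.5 and 120 RPM. The peptide gene *Dh44*, a marker of circadian output cells of the PI, had 436 reads in Cell 1 beside 506 and 761 in Cells 2 and 4 and 538167 in Cell 3.

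Hemocyte genes were the list with the largest share of higher genes. Of the 12 compared, 7 (58.3%) were at least 4-fold higher in Cell 1 and 1 was lower, with a median log2 ratio of 3.42, and 13 of the 18 listed genes reached 1 RPM in Cell 1, 11 in Cell 2 and 9 in Cell 4. *NimC1*, a phagocytosis receptor, had 795 reads in Cell 1 (203 RPM), 6 in Cell 2 and 1 in Cell 4. *Hml* (Hemolectin) had 754 reads (193 RPM), 76 and 123, and *Ppn* (Papilin), a matrix protein, had 3976 reads (1015 RPM), 561 and 22. Together with *Pxn*, the others were *NimB4*, *Sr-CI* and *PPO2*. The receptor *eater* was detected in Cell 1 only, with 33 reads (8.43 RPM). The GATA factor *srp*, by contrast, was alike at 43.4, 66.1 and 52.2 RPM, and *lz*, *NimC2*, *NimC4*, *PPO3* and *gcm2* had 0 reads in Cell 1. Summed over the list, hemocyte genes made up 2427 RPM in Cell 1, 457 RPM in Cell 2, 258 RPM in Cell 4, 206 RPM in Cell 3 and 102 RPM in the discarded cell. The sum in Cell 1 was above that of each other cell, and whether such RNA has a part in the difference of Cell 1 from Cells 2 and 4 was not tested.

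Humoral immune and fat body genes were also higher more often than the 8.67% of all compared genes. Of 19 immune genes compared, 5 (26.3%) were at least 4-fold higher in Cell 1 and 1 was lower. *TotA*, a stress-induced secreted protein, had 6953 reads in Cell 1 (1776 RPM) against 110 and 193 RPM in Cells 2 and 4, and *PGRP-SB1*, named above, 232 RPM against 1.16 RPM and 0. *TotC*, *PGRP-SA* and *CecC* were the other 3, and *Listericin* was lower, with 4 reads against 404 and 386. *TotA* and *TotC* are members of 1 gene family, between which reads may be divided. The immune list summed to 8084 RPM in Cell 1 and to 2235 and 2631 RPM in Cells 2 and 4.

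For the fat body, 5 of 24 genes compared (20.8%) were higher in Cell 1 and 1 was lower, and the sums of 54567, 55627 and 22443 RPM in Cells 1, 2 and 4 placed Cell 1 beside Cell 2. The 5 genes were *bmm* (Brummer lipase), with 1328, 102 and 209 reads in Cells 1, 2 and 4, *regucalcin*, with 2092, 100 and 58, *CG5966*, with 1569, 44 and 0, *fit*, with 331, 15 and 60, and *Gnmt*. The abundant fat body genes were not among them. *apolpp*, the lipophorin precursor, stood at 19358, 27558 and 7049 RPM, and *Yp1*, a yolk protein, at 10691, 3012 and 4271 RPM. Transcripts of fat body, photoreceptors and glia were therefore found in all 3 cells. Photoreceptor genes summed to 18735, 22004 and 61761 RPM in Cells 1, 2 and 4 and glial genes to 3447, 5989 and 7658 RPM, with 1 read of *repo*, the glial transcription factor, in Cell 1, 0 in Cell 2 and 300 in Cell 4. What part these transcripts have in the differences was not tested.

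**Figure D4:**
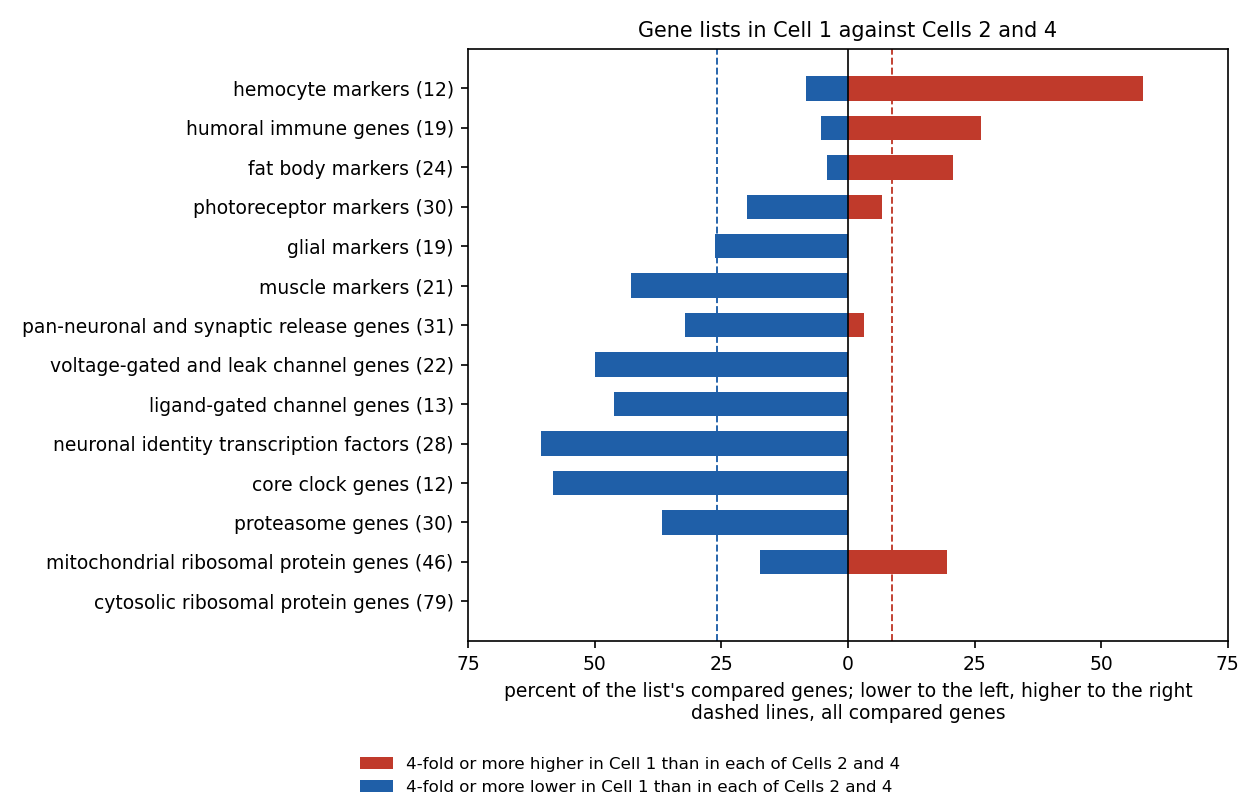
Share of the compared genes of 14 lists (number compared in parentheses) that were at least 4-fold higher (right) or lower (left) in Cell 1 than in each of Cells 2 and 4, with dashed lines at the shares over all 5914 compared genes (8.67% and 25.8%). Hemocyte genes lie farthest to the right (58.3%) and neuronal identity transcription factors farthest to the left (60.7%), and cytosolic ribosomal protein genes have neither.

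Lists of genes that every cell uses were not uniform. None of 79 cytosolic ribosomal protein genes differed 4-fold in either direction, and these genes took 296893, 267010 and 219919 RPM in Cells 1, 2 and 4. Of 46 mitochondrial ribosomal protein genes, in contrast, 9 (19.6%) were higher in Cell 1 and 8 (17.4%) lower. Of 30 proteasome genes, 11 (36.7%) were lower and none was higher, although their sum of 1296 RPM in Cell 1 lay between the 987 and 1498 RPM of Cells 2 and 4. The share of lower genes thus differed among the lists of genes that every cell uses. It was below the 25.8% of all compared genes for both ribosomal lists, for oxidative phosphorylation (5 of 53, 9.43%), for translation factors (3 of 38, 7.89%) and for the vacuolar proton pump (1 of 15, 6.67%). Muscle genes, which are tissue markers and not of this kind, were lower for 9 of 21 (42.9%) and higher for none.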

How the data were processed

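The authors amplified the RNA of each cell through repeated rounds of antisense RNA synthesis, used Trim Galore and PRINSEQ for trimming, and mapped the reads to dm6 with STAR. They deposited, for each cell, whole-number counts of reads per gene from STAR and from MMQuant. STAR's deposited counts without regard to strand are the main values. Its 4 lines of unassigned reads stayed out of the totals. RPM was computed from these counts over the reads assigned to genes.

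Of 17453 identifiers, 17182 were matched to a symbol and 17179 to a position (Ensembl release 115, BDGP6.54). *para* has no position there. Genes were chosen by the rule above, and a fold against fewer than 3 reads was computed against 3 reads. No test of Cell 1 against Cells 2 and 4 was made, and outlying cells were sought with Dixon's criterion. Members and lists were chosen with earlier results of these data known.

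Genes to be named were the 5 neuronal markers, the 15 members of each set with the highest values, the 8 highest in each unused cell, the 3 nearest inside and outside each threshold, members with most shared reads (5 of each set) and up to 6 genes of each list. Names beyond this rule, overlap partners included, were chosen after their values were seen. Of the genes on the lists, 20 could not be matched and were left out. The code of the selection was checked on simulated counts with planted genes. That check does not bear on the amplification noise of these libraries. Software was Python 3.11.15, scipy 1.17.1, pandas 2.3.3, numpy 2.4.6 and, for plots, matplotlib 3.10.9.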

Additional observations from a re-analysis of the deposited data

Results flagged for a closer look

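For 72 values (sums of the lists, numbers of genes detected and single genes of the lists), the lowest or highest of Cells 1 to 4 was compared with the other 3 on the log2(RPM + 1) scale, except for numbers of genes, which were compared as they are. For 7 of the 72 this cell stood apart by Dixon's criterion at the 95% level, and chance alone gives about 1 in 20. Only 1 of the 7 concerned Cell 1, namely *Syt1*, at 0.82 in Cell 1, and *Syt1* is among the markers for which Cell 1 was singled out, so that its value is a description. The 72 also hold *elav*, *brp* and *para* and sums that include members (*Pxn*, *Gnmt*, *vvl*, *dco* and others), none of which stood apart. Cell 3 stood apart in 5 of them, through the summed peptide genes (17.18) and *Dh44* within them (17.01), the summed long non-coding RNAs (15.05), the summed odorant binding proteins (8.46) and *Syx1A* (0, with 0 reads). Cell 4 stood apart in the summed germline and testis markers (2.20), which had 1 read in Cell 1 and 0 reads in Cells 2 and 3.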

How the results depend on the processing

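The 18 and 10 genes depended on the limits and on the denominator of the RPM. All uniquely mapped reads as the denominator left 8 and 1 genes, 50 RPM gave 40 and 83, 200 RPM 4 and 0, and at most 5 reads 28 and 23. With 0 reads required, 11 of the 18 were left. MMQuant gave 4 genes for the second set, counting reads of the gene alone or every shared read. Leaving out 1 of Cells 2 and 4 gave 45 to 60 genes for the first set and 51 to 71 for the second. Thinned libraries, the 2 stranded counts and median-ratio size factors kept both counts within 1.5 times, and this last scaling moved Cell 1 against Cells 2 and 4 by 0.02 on the log2 scale. Of the members themselves, the 2 stranded counts kept 14 of the 18, with *CG4950* among those lost, and 6 of the 10. For the 4-fold counts, which were added after the data were seen, 8-fold gave 303 higher genes, and leaving out 1 of Cells 2 and 4 gave 804 to 877 higher and 1962 to 2219 lower. Of the first set, 4 genes had a read in Cell 3, and in the discarded cell 4 reached 10 RPM and 18 had a read. Of the second set, 4 reached 10 RPM in the discarded cell. Over all 17453 genes, 4326 had a read in Cell 3, and in the discarded cell 4922 reached 10 RPM and 8543 had a read. Of the 5 neuronal markers, 1 reached 10 RPM and 4 had a read in Cell 1. The difference between Cell 1 and Cells 2 and 4 kept its direction for every member and marker under the 8 settings recomputed for them. For the members, and for *elav*, *brp*, *Syt1* and *para*, the choice of genes fixed that direction, so it is no check of them. Its size was not kept: with the 2 stranded counts summed it dropped from 6.86 to 3.06 for *CG32409* and from 6.51 to 3.34 for *Pxn* on the log2 scale. Totals without mitochondrially encoded genes were not run, since no such gene was matched. No paired analysis was possible because every cell is a single library and the cells were not tested against each other by group. With 1 cell against 2, neither a cell's own variation nor amplification can be separated from the differences.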

Other observations

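Further gene groups are given beside all compared genes, of which 8.67% were at least 4-fold higher and 25.8% lower in Cell 1. Cuticle protein genes were lower for 7 of 14 compared (50%) and higher for 2 (14.3%). Cell adhesion genes of the dpr, DIP, beat and side families were lower for 7 of 22 (31.8%) and higher for 1 (4.55%), near the shares of all genes, and summed to 160 RPM in Cell 1, 411 RPM in Cell 2 and 461 RPM in Cell 4. Genes of insulin and lipid signaling were higher for 4 of 19 (21.1%) and lower for 3 (15.8%).

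Single genes with a wide gap, picked after their values were seen, were *Obp99a*, an odorant binding protein, with 7370 reads in Cell 1 against 1130 and 136 in Cells 2 and 4, and *Bap55*, a subunit of the Brahma chromatin remodeling complex, with 2047 reads against 15 and 5. The peptide gene *CCHa1* had 325 reads in Cell 1 (83.0 RPM), 0 reads in Cells 2, 3 and 4 and 3 reads in the discarded cell. Among genes lower in Cell 1, *emc*, an inhibitor of basic helix-loop-helix factors, had 43 reads against 1299 and 2205, and *Wdr62*, a protein of spindle poles and centrosomes, had 15 against 1355 and 1545.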
